A study of Mus musculus with 12 samples.

Results

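10 genes of the NF-κB system were read in mouse liver: the adaptor Traf6, the subunit genes Nfkb1, Nfkb2, Rela and Relb, the inhibitors Nfkbia and Tnfaip3, and the targets Birc3, Icam1 and Vcam1. They were chosen by name as 10 of the 23420 genes listed in both count tables, and all 10 passed the filter on low counts in each comparison. RNA of flash-frozen liver from mice on a C57BL/6 background was sequenced after poly(A) selection, as 12 libraries in 4 groups of 3. p62F/F livers carried floxed Sqstm1, the gene of the adaptor protein p62, and no Cre. In p62Δhep livers the floxed Sqstm1 was deleted by Alb-Cre, a Cre transgene driven by the albumin promoter and active in hepatocytes. Tsc1Δhep livers carried floxed Tsc1 and Cre, and Tsc1/p62Δhep livers carried both floxed genes and Alb-Cre, so hepatocyte deletion of Tsc1 was shared by this pair of groups. Cells in which the albumin promoter has never been active keep both genes, and deletion was not measured by cell type. Low-fat and high-fat diets are named with no link to samples, and the sources used here give no age. No label states that each library is a separate animal, so the spread behind the p-values may be technical.

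NF-κB proteins are dimeric transcription factors held inactive in the cytoplasm by inhibitor proteins until a kinase complex marks the inhibitor for destruction. The dimers then switch on genes of inflammation and survival, and among them genes of their own inhibitors, which close a negative feedback loop. p62 binds TRAF6, a ubiquitin ligase that carries signals from interleukin-1 and Toll-like receptors to that kinase complex. In the liver the pathway is known both in hepatocytes, where it protects against death induced by tumour necrosis factor, and in resident macrophages and endothelial cells, where it drives cytokines and adhesion molecules.

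NF-κB dimers bind a short DNA element, the κB site, and the 250 bases upstream of RefSeq gene starts (build GRCm38.p6) were searched for its consensus on both strands. Of the members, 7 of 10 had an entry, and Nfkb1, Relb and Vcam1 had none. Bases just after the start of the Icam1 entry were in no GENCODE transcript of that gene, so its window may not be its promoter. The consensus was present for 3 of the 7, Nfkbia, Tnfaip3 and Nfkb2, and for 8.23% of all 27025 genes with an entry. A looser form, GGGNNNNNCC, which covers every consensus match, was present for 7 of 7 members and for 48.7% of all genes. The matches nearest to the start of Nfkbia and Tnfaip3, a second one of Tnfaip3 and a match of Nfkb2 are shown. For Nfkb2 another consensus match, GGGGCTTTCC, lay nearer to the same start, 11 to 2 bases upstream. These genes are the inhibitor that rose, the inhibitor that fell and a subunit gene that fell in the comparison described next. Each sequence runs 5′ to 3′ in the direction of the gene, and capitals mark the match.

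Nfkbia, chr12:55492648-55492701, minus strand, match 29 to 20 bases upstream: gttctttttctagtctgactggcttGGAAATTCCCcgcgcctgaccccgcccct

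Tnfaip3, chr10:19015411-19015447, minus strand, match 12 to 3 bases upstream: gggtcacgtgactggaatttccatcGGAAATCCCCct

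Tnfaip3, chr10:19015501-19015560, minus strand, match 125 to 116 bases upstream: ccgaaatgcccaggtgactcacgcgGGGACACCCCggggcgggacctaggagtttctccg

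Nfkb2, chr19:46304673-46304732, plus strand, match 39 to 30 bases upstream of the first of 3 starts: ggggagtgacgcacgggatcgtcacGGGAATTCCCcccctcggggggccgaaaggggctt

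A match is a description of these letters and not a measured site. Nfkbia and Tnfaip3 both had a match next to the start, and their levels moved in opposite directions, as given below.

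Total counts were 15792048 to 33377247 per library. Sqstm1 was at 316 to 351 CPM (the count relative to library size, TMM-scaled within a table, per 1e+06 counts) in p62F/F, 789 to 1210 in Tsc1Δhep, and 12.4 to 19.8 in the 6 libraries of p62Δhep and Tsc1/p62Δhep. The level of Tsc1 was 26.0 to 39.7 CPM where Tsc1 was intact and 5.39 to 13.7 CPM where it was deleted. Tsc1Δhep library 1 stood apart: Vsig4 and Clec4f, markers of resident liver macrophages, had 0 and 1 counts there, and Clec4g, a marker of sinusoidal endothelium, had 1. Libraries 2 and 3 of that group had 347 and 437 counts of Vsig4, 752 and 871 of Clec4f, and 474 and 408 of Clec4g. Hepatocyte markers were present in all libraries. Rn45s, the ribosomal RNA precursor, took 1.91% to 3.50% of counts in the Tsc1-intact libraries, 1.21% in Tsc1/p62Δhep library 1 and 0.0751% to 0.181% in the other 5, and its part in levels set across tables was not tested. Tests of the members in the Tsc1-deleted livers are given with and without Tsc1Δhep library 1. Counts by list, list medians and results of cell markers are given with it only.

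**Figure D1:**
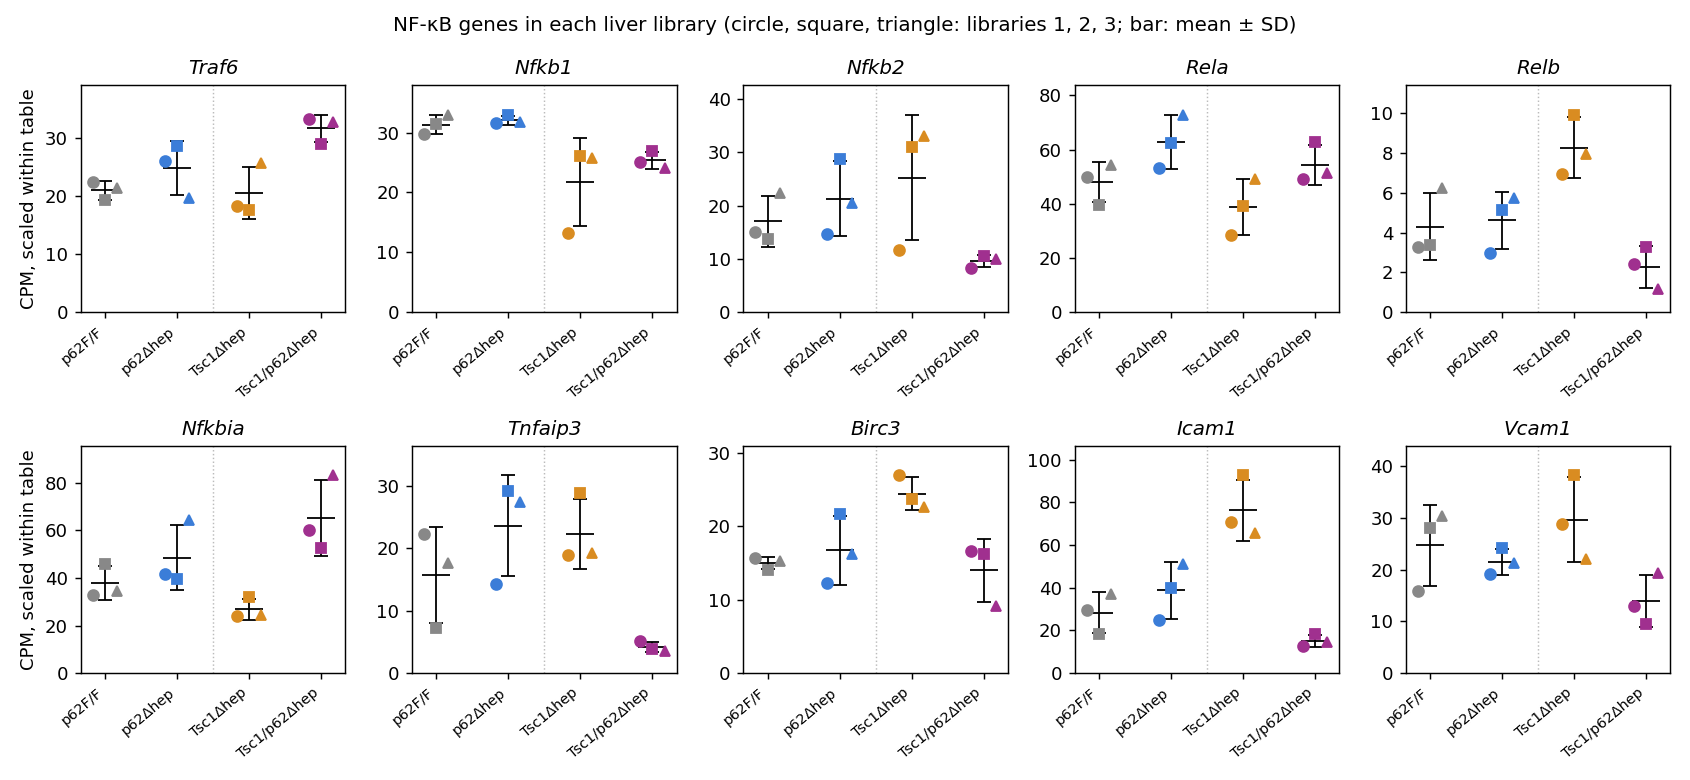
Level of each of the 10 genes in each library, as CPM scaled within its count table on a linear axis from 0, with points for libraries and bars for the mean and SD of 3 libraries per group. Icam1 and Tnfaip3 were lower in the 3 Tsc1/p62Δhep libraries than in any Tsc1Δhep library, and Nfkbia was higher.

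With p62 deleted on top of Tsc1, 5 of the NF-κB genes passed the test. Icam1 and Tnfaip3 were about 5.04-fold and 5.31-fold lower in Tsc1/p62Δhep than in Tsc1Δhep, Relb 3.62-fold and Nfkb2 2.63-fold lower, and Nfkbia was 2.43-fold higher. With edgeR's quasi-likelihood test, adjusted by Benjamini-Hochberg over all genes tested, 1 of 10 members rose and 4 fell at an adjusted p below 0.05. Of all 12620 genes tested, 9.25% rose and 14.9% fell. The median log2 difference of the members was -0.95, against -0.049 for all genes tested. In bulk liver, fewer cells of a type and less RNA per cell cannot be told apart. Macrophage and hepatocyte markers differed between the same groups, with values given further on, and their part in these results was not tested.

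Traf6 was at 18.3, 17.6 and 25.6 CPM in Tsc1Δhep libraries 1 to 3 and at 33.1, 28.8 and 32.8 CPM in Tsc1/p62Δhep. The 3 libraries lacking p62 were above all others of the table, although by library totals alone the ranges overlapped (19.4 to 31.2 against 25.9 to 29.7 CPM). The log2 difference of 0.62 ± 0.23 (SE) had an adjusted p of 0.0808 by edgeR. Without Tsc1Δhep library 1 it was 0.56 (adjusted p 0.129), and without library 3, the highest of its group, 0.84 (adjusted p 0.0105).

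Rela encodes the main transactivating subunit of the canonical dimer. It was at 28.4, 39.1 and 49.19 CPM in Tsc1Δhep, against 49.24, 62.8 and 51.3 CPM in Tsc1/p62Δhep. The ranges nearly touched, and by library totals they overlapped, and the log2 difference of 0.49 ± 0.25 did not pass (adjusted p 0.186). It was 0.31 without Tsc1Δhep library 1 (adjusted p 0.335) and passed without library 3 (0.71, adjusted p 0.0381).

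Nfkb1 encodes the precursor of the DNA-binding partner of RELA. Its values were 13.2, 26.1 and 25.8 CPM in Tsc1Δhep and 25.1, 26.9 and 24.0 CPM in Tsc1/p62Δhep, so the groups overlapped and only Tsc1Δhep library 1 was low. The log2 difference was 0.22 (95% interval -0.46 to 0.90, adjusted p 0.595), and -0.029 without that library.

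Nfkb2 and Relb encode the subunits of the non-canonical dimer. Nfkb2 was at 11.7, 31.0 and 33.0 CPM in Tsc1Δhep, against 8.26, 10.5 and 10.1 CPM in Tsc1/p62Δhep. Library 1 of Tsc1Δhep lay just above the other group and libraries 2 and 3 far above it. Its log2 difference was -1.39 ± 0.40 (adjusted p 0.0394). It was -1.73 without Tsc1Δhep library 1 (adjusted p 0.00253), and the call was lost without any one of the other 5 libraries, with adjusted p from 0.0588 without Tsc1Δhep library 3 to 0.149 without Tsc1/p62Δhep library 1.

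Relb was at 6.93, 9.92 and 7.93 CPM in Tsc1Δhep, against 2.40, 3.28 and 1.17 CPM in Tsc1/p62Δhep, the last from 34, 50 and 18 counts. Every Tsc1Δhep library was above every Tsc1/p62Δhep library. The log2 difference was -1.85 ± 0.41 (adjusted p 0.0173). Without Tsc1Δhep library 1 it was -1.96 (adjusted p 0.0177), and the call was lost without Tsc1Δhep library 2 (0.0685) or Tsc1/p62Δhep library 1 (0.0769). The subunit genes of the canonical pair were thus not called, and those of the non-canonical pair were called lower, although whether the pairs differ was not tested.

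Nfkbia encodes IκBα, the inhibitor that retains canonical dimers in the cytoplasm and is itself an NF-κB target. It was at 24.2, 32.0 and 24.5 CPM in Tsc1Δhep, against 60.0, 52.8 and 83.2 CPM in Tsc1/p62Δhep. The groups were far apart, with the lowest library lacking p62 above the highest library of the other group. Nfkbia had a log2 difference of 1.28 ± 0.25 (adjusted p 0.0107), and 1.21 without Tsc1Δhep library 1 (adjusted p 0.0193). The call held in every fit run, including those that left out each library in turn.

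Tnfaip3 encodes a ubiquitin-editing enzyme that shuts off signalling from the tumour necrosis factor receptor and from TRAF6, and is also an NF-κB target. It was at 18.8, 28.8 and 19.2 CPM in Tsc1Δhep, against 5.16, 3.93 and 3.51 CPM in Tsc1/p62Δhep. Every Tsc1/p62Δhep library lay below every other library of the 4 groups. By edgeR the log2 difference was -2.41 ± 0.29 (adjusted p 0.00229) and -2.51 without Tsc1Δhep library 1 (adjusted p 0.00211). Its call also held in every fit run.

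Birc3 encodes an inhibitor-of-apoptosis ubiquitin ligase of the receptor complex. It was at 26.9, 23.7 and 22.7 CPM in Tsc1Δhep, against 16.7, 16.3 and 9.09 CPM in Tsc1/p62Δhep. The groups did not overlap, and the log2 difference of -0.80 ± 0.28 did not pass (adjusted p 0.0729, or 0.120 without Tsc1Δhep library 1). DESeq2 gave it an adjusted p of 0.0454. Birc2 is a closely related gene, and how the authors' counting shared reads between such copies is not stated in the sources used here.

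Icam1 encodes an adhesion molecule to which leukocytes bind on endothelium and on inflamed hepatocytes. It was at 70.8, 92.7 and 65.6 CPM in Tsc1Δhep, against 12.5, 18.2 and 14.7 CPM in Tsc1/p62Δhep. The lowest Tsc1Δhep library stood far above the highest Tsc1/p62Δhep library. Icam1 had a log2 difference of -2.33 ± 0.25 (adjusted p 0.00144) and -2.38 without Tsc1Δhep library 1 (adjusted p 0.0016), and the call held in every fit run.

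Vcam1, an adhesion molecule of activated endothelium that also binds leukocytes, was at 28.7, 38.2 and 22.0 CPM in Tsc1Δhep, against 12.9, 9.44 and 19.4 CPM in Tsc1/p62Δhep. The groups did not overlap. The log2 difference of -1.09 ± 0.33 had an adjusted p of 0.0502, just above the threshold, and of 0.0668 without Tsc1Δhep library 1. DESeq2 gave 0.0177 and limma 0.0463, and edgeR gave 0.0209 with library 3 of Tsc1Δhep left out and 0.0431 with library 3 of Tsc1/p62Δhep left out. In all, the groups did not overlap for 9 of 10 members, 3 higher and 6 lower in Tsc1/p62Δhep, against 45.7% of all genes tested.

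**Figure D2:**
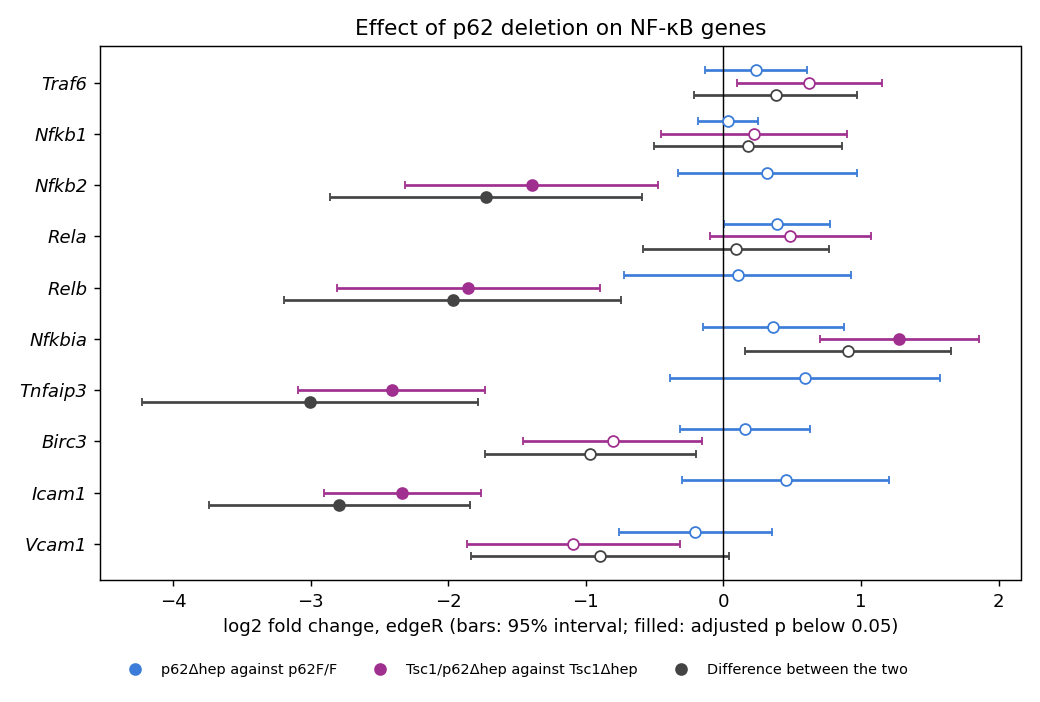
Log2 difference with its 95% interval for each of the 10 genes in the 2 comparisons and for the difference between them, from edgeR, with filled points at an adjusted p below 0.05. In p62Δhep against p62F/F every interval but that of Rela spans 0, whereas in Tsc1/p62Δhep against Tsc1Δhep the intervals of Nfkbia and Traf6 lie above 0 and those of Tnfaip3, Icam1, Relb, Nfkb2, Birc3 and Vcam1 below, of which Traf6, Birc3 and Vcam1 did not pass after adjustment.

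The same genes were read after deletion of p62 alone. No member passed the test between p62Δhep and p62F/F, and the groups overlapped for all 10. Across all 12567 genes, 0.0159% were called, both lower, and the groups did not overlap for 12.8%, 6.17% higher and 6.65% lower. At an unadjusted p below 0.05, edgeR had 1 member, Rela, against 8.12% of all genes, and DESeq2 and limma also called 0 members. The log2 differences were positive for 9 of 10 members, with a median of 0.28 against 0.0043 for all genes. p62F/F is labelled Cre negative, so an effect of Cre itself and of p62 deletion cannot be told apart here.

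Rela was at 50.1, 39.8 and 54.3 CPM in p62F/F and at 53.2, 62.3 and 72.9 CPM in p62Δhep, overlapping only through p62Δhep library 1. Its log2 difference was 0.39 ± 0.16 (adjusted p 0.615). Nfkbia was at 32.7, 46.0 and 34.7 CPM in p62F/F and at 41.8, 39.6 and 64.3 CPM in p62Δhep, where library 3 was high. Its log2 difference was 0.36 (95% interval -0.15 to 0.87).

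Tnfaip3 varied within both groups, with 22.3, 7.21 and 17.7 CPM in p62F/F and 14.4, 29.1 and 27.3 CPM in p62Δhep. The log2 difference was 0.59 (95% interval -0.39 to 1.57). Icam1 was at 29.7, 18.2 and 37.3 CPM in p62F/F and at 24.8, 40.1 and 51.4 CPM in p62Δhep, a log2 difference of 0.45 (-0.30 to 1.20). For both genes p62F/F library 2 was the lowest of the 6. These intervals exclude falls as large as those measured in the Tsc1-deleted livers.

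Among the subunits, Nfkb1 was nearly level, at 29.7, 31.3 and 33.0 CPM in p62F/F and 31.5, 32.9 and 31.7 CPM in p62Δhep. Nfkb2 was at 15.0, 13.7 and 22.4 against 14.7, 28.7 and 20.4 CPM, and Relb at 3.27, 3.40 and 6.23 against 2.97, 5.12 and 5.73 CPM. Nfkb2 had a log2 difference of 0.32 (95% interval -0.33 to 0.97) and Relb one of 0.10 (-0.72 to 0.93). For both genes the groups overlapped over most of their ranges.

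Traf6 was at 22.4, 19.3 and 21.3 CPM in p62F/F and at 25.9, 28.7 and 19.7 CPM in p62Δhep, a log2 difference of 0.24 (95% interval -0.13 to 0.60). Birc3 was at 15.6, 14.1 and 15.3 against 12.3, 21.6 and 16.3 CPM, a log2 difference of 0.16 (-0.31 to 0.63). Vcam1, the member with a negative difference (-0.20, interval -0.76 to 0.35), was at 15.8, 28.0 and 30.3 against 19.1, 24.1 and 21.2 CPM. Here p62F/F library 1 was the lowest of the 6 and the other p62F/F libraries the highest.

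The difference of the p62 effect between the Tsc1 backgrounds was tested in 1 model of all 12 libraries. It asks whether a member responded differently to loss of p62 where Tsc1 was also deleted. Of the 10 members, 4 had a more negative response in the Tsc1-deleted livers and 0 a more positive one, against 9.32% and 6.76% of 13231 genes (16.1% in either direction). The log2 difference of responses was -3.01 ± 0.56 for Tnfaip3 (adjusted p 0.00585), -2.79 ± 0.43 for Icam1 (0.00271), -1.97 ± 0.56 for Relb (0.0349) and -1.72 ± 0.52 for Nfkb2 (0.0430). The Tnfaip3 and Icam1 calls held in every fit run. That of Nfkb2 held in 4 and that of Relb in 5 of the 12 fits that left out 1 library. Nfkb2 was lost (adjusted p 0.0693 to 0.108) without p62F/F library 1 or 2, p62Δhep library 2 or 3, Tsc1Δhep library 2 or any Tsc1/p62Δhep library. Relb was lost (0.0586 to 0.0922) without the same libraries except Tsc1/p62Δhep library 2. Without Tsc1Δhep library 1 the same 4 members were called.

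Nfkbia, which rose in the Tsc1-deleted livers, had a difference of 0.91 ± 0.34 that did not pass (adjusted p 0.0909). Birc3 (-0.97, adjusted p 0.0792), Vcam1 (-0.90, 0.166), Traf6 (0.38, 0.344), Nfkb1 (0.18, 0.722) and Rela (0.089, 0.866) did not pass either. A difference in scale between the tables drops out of this contrast, and an effect of Cre does not.

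Levels of all 4 groups were set side by side as CPM by library totals and not tested, because Tsc1 status and count table cannot be told apart. Icam1 was highest in Tsc1Δhep (85.8 ± 14.7 CPM, SD, n = 3), then came p62Δhep (38.0 ± 11.4), p62F/F (28.4 ± 9.33) and Tsc1/p62Δhep (13.4 ± 2.64). Only p62Δhep and p62F/F overlapped among these neighbours. Relb had the same order, at 9.33 ± 1.83, 4.52 ± 1.19, 4.35 ± 1.77 and 2.03 ± 0.97 CPM, and the same overlap.

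Tnfaip3 also had this order, with 25.1 ± 6.11, 23.1 ± 6.54, 15.5 ± 6.81 and 3.73 ± 0.81 CPM, but its first 3 groups overlapped and Tsc1/p62Δhep alone was apart. Nfkb2 was alike, at 29.0 ± 14.7, 20.8 ± 5.54, 17.2 ± 4.96 and 8.51 ± 1.02 CPM. Birc3 was apart in Tsc1Δhep instead, at 27.5 ± 1.20 CPM, while p62Δhep (16.4 ± 3.50), p62F/F (15.1 ± 0.58) and Tsc1/p62Δhep (12.5 ± 3.99) overlapped as neighbours.

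Nfkbia had nearly the reverse order, from Tsc1/p62Δhep (57.7 ± 12.7 CPM) through p62Δhep (48.2 ± 12.8) and p62F/F (38.4 ± 9.97) to Tsc1Δhep (30.3 ± 4.89), and each neighbouring pair overlapped. For Traf6 and Nfkb1 every neighbouring pair overlapped too, with group means of 21.1 to 28.0 and 22.5 to 31.9 CPM. Rela was highest in p62Δhep (62.1 CPM), whose libraries lay above those of Tsc1/p62Δhep (48.3) by library totals and overlapped them with TMM over 12 libraries, and the other neighbours overlapped. Vcam1 was lowest in Tsc1/p62Δhep (12.3 CPM), below p62Δhep (21.2) without overlap but overlapping p62F/F (25.3).

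Between Tsc1Δhep and p62F/F, 3 members were higher without overlap, Icam1 (3.02-fold), Relb (2.14-fold) and Birc3 (1.82-fold), and 0 lower, against 32.5% and 14.3% of all genes. The median log2 ratio of all genes there was 0.26 by library totals and 0.019 with TMM over 12 libraries. With the latter the same 3 were higher, at 2.55-fold, 1.83-fold and 1.54-fold, and Nfkb1 and Nfkbia were lower without overlap. By that scaling 22.8% of all genes were higher and 23.3% lower. Between Tsc1/p62Δhep and p62F/F, 5 members were lower without overlap (Nfkb1, Nfkb2, Relb, Tnfaip3 and Icam1) and Traf6 was higher, against 30.3% and 17.1% of all genes. Between Tsc1/p62Δhep and p62Δhep, 7 were lower by library totals, against 30.8%. With TMM over 12 libraries 5 were lower, against 26.9%, as Rela and Relb then overlapped.

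Ratios of counts within a library need no scaling. They were chosen after the values were seen and are given as a description. Icam1 counts per Nfkbia count were 2.68 to 2.93 in Tsc1Δhep and 0.177 to 0.345 in Tsc1/p62Δhep, with 0.395 to 1.08 in p62F/F and 0.593 to 1.01 in p62Δhep. Tnfaip3 per Nfkbia was 0.780 to 0.900 in Tsc1Δhep and 0.0422 to 0.0860 in Tsc1/p62Δhep. It lay at 0.157 to 0.682 and 0.343 to 0.737 in p62F/F and p62Δhep, so both Tsc1-deleted groups were outside the range of the other groups, on opposite sides.

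The rest of the pathway was read from 105 listed genes, all in the tables: ligands, receptors, adaptors, kinases, other subunits and inhibitors, ubiquitin-editing factors and other targets. Between Tsc1/p62Δhep and Tsc1Δhep, 5 of the 86 tested rose and 23 fell, beside 9.25% and 14.9% of all genes tested, with a median log2 difference of -0.31. Of the receptors 1 of 13 rose and 6 fell, of the other targets 2 of 19 rose and 8 fell, and of the kinases 1 of 13 rose and 3 fell. Adaptors had 1 of 15 higher and 2 lower, ubiquitin-editing factors 0 of 14 higher and 2 lower, subunits and inhibitors 0 of 7 higher and 1 lower, and ligands 0 of 5 higher and 1 lower. Between p62Δhep and p62F/F, edgeR called 0 of 91.

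**Figure D3:**
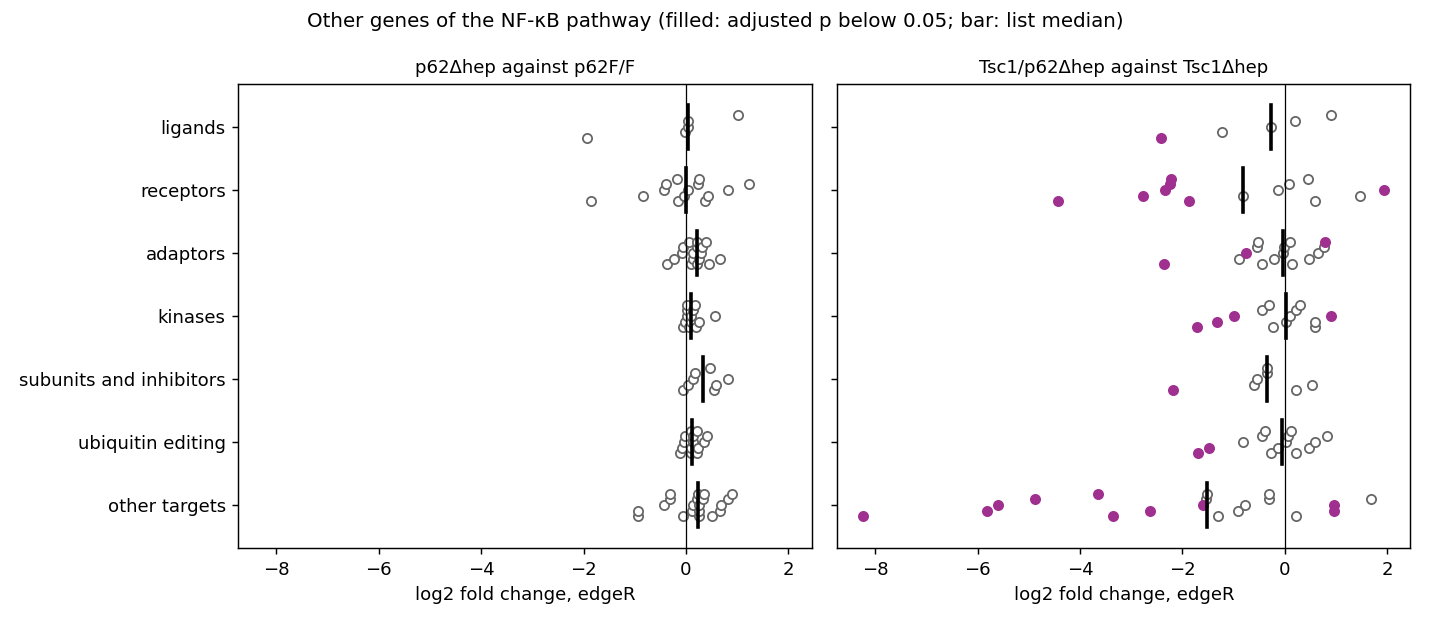
Log2 difference of each tested gene of the pathway lists, ordered by role, in the comparisons of p62Δhep with p62F/F and of Tsc1/p62Δhep with Tsc1Δhep, with filled points at an adjusted p below 0.05 and bars at the list medians. In the first, no gene of the lists was called, and in the second 5 rose and 23 fell.

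Il1rap, the co-receptor of interleukin-1 upstream of TRAF6, rose from 45.4, 46.7 and 48.4 CPM in Tsc1Δhep to 171, 199 and 171 CPM in Tsc1/p62Δhep (3.85-fold, adjusted p 0.00119). The receptors Tnfrsf12a, which binds the cytokine TWEAK, and Tlr1, a Toll-like receptor, fell. Tnfrsf12a was at 263, 127 and 26.5 CPM in Tsc1Δhep, against 4.59, 4.72 and 9.93 CPM in Tsc1/p62Δhep (adjusted p 0.00918). Tlr1 fell from 1.81 ± 0.17 to 0.379 ± 0.134 CPM (adjusted p 0.0109).

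Among signalling factors, Irak3, an inhibitory member of the interleukin-1 receptor kinase family, fell from 6.76 ± 2.62 to 1.32 ± 0.44 CPM (adjusted p 0.0103). The kinase gene Map3k8 fell from 4.42 ± 1.05 to 1.34 ± 0.039 CPM (0.0111). Tnip1, a binding partner of the Tnfaip3 product, fell from 56.0 ± 13.3 to 17.3 ± 4.27 CPM (0.00584), and Nfkbie, an inhibitor related to IκBα, from 14.1 ± 6.48 to 3.09 ± 0.44 CPM (0.00703). The calls of Tnfrsf12a, Irak3, Ccl2, Tlr1 and Map3k8 were lost without Tsc1/p62Δhep library 1, with adjusted p of 0.0524 to 0.0751, that of Map3k8 also without library 2 of that group and that of Tlr1 also without library 3.

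Of the targets, Lcn2, an iron-sequestering acute-phase protein, was at 615, 512 and 251 CPM in Tsc1Δhep, against 7.77, 10.1 and 10.3 CPM in Tsc1/p62Δhep, a 49.0-fold fall (adjusted p 0.000553). In p62F/F and p62Δhep its libraries ranged from 151 to 2743 CPM. Ccl2, a chemokine that attracts monocytes, was at 24.2, 42.5 and 1.83 CPM in Tsc1Δhep, against 0.283, 0.459 and 0.454 CPM in Tsc1/p62Δhep (adjusted p 0.0104). Tnfaip8, an apoptosis regulator, fell from 9.71 ± 4.69 to 1.56 ± 0.53 CPM (adjusted p 0.00894).

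The other 4 risers were named after their values were seen. Sod2, the mitochondrial superoxide dismutase, rose from 142 ± 3.61 to 277 ± 23.1 CPM (adjusted p 0.0129). Chuk, a kinase of the complex that acts on IκB proteins, rose from 122 ± 11.2 to 227 ± 10.1 CPM (0.0159). Tirap, an adaptor of Toll-like receptors, rose 1.72-fold (0.0300), and Cflar, an inhibitor of caspase activation, 1.95-fold (0.04998), a call that was lost without Tsc1Δhep library 1 (0.0732). The calls of all 4 were lost without Tsc1Δhep library 2 or without Tsc1/p62Δhep library 1 or 2, and those of Tirap and Cflar also without Tsc1/p62Δhep library 3. Of the pathway genes named, Cflar was the one that lost its call without Tsc1Δhep library 1.

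Markers of other liver cells moved between these groups. Of the 8 macrophage and Kupffer cell markers, 4 fell and 0 rose between Tsc1/p62Δhep and Tsc1Δhep, and their summed level was 252 to 382 CPM in Tsc1Δhep and 108 to 125 CPM in Tsc1/p62Δhep. In p62F/F and p62Δhep it was 414 to 474 and 456 to 760 CPM. The 4 were Adgre1, Cd68, Csf1r and Lyz2. The resident markers Clec4f, Vsig4 and Cd5l did not pass, with log2 differences of 0.38, -0.11 and 0.17. These include Tsc1Δhep library 1, where the 3 were at 0.0433, 0 and 0.217 CPM. Libraries 2 and 3 of Tsc1Δhep had 20.4 and 40.9 CPM of Clec4f, 9.40 and 20.5 of Vsig4, and 24.9 and 54.5 of Cd5l. The Tsc1/p62Δhep means were 26.6, 9.23 and 29.8 CPM. Marco did not pass either and was higher in Tsc1/p62Δhep, with a log2 difference of 2.68 (adjusted p 0.0529 by edgeR). Cd68, scaled within tables, had group means of 21.6 CPM in Tsc1Δhep, 14.8 in p62Δhep, 11.01 in p62F/F and 2.98 in Tsc1/p62Δhep, which is the order of Icam1. Lyz2 had that order too, at 166, 118, 68.3 and 20.9 CPM. No other macrophage or Kupffer cell marker of the list had it. In the same sequence of groups, Adgre1 was at 14.8, 27.6, 20.6 and 4.76 CPM. Csf1r was at 47.1, 54.3, 44.3 and 16.3 CPM. In Tsc1Δhep library 1, where Vsig4 was at 0, Cd68 was at 23.7 and Lyz2 at 186 CPM, beside Icam1 at 70.8 and Tnfaip3 at 18.8 CPM.

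Endothelial markers, for cells that carry Icam1 and Vcam1, summed to 45.4 to 182 CPM in Tsc1Δhep and 117 to 151 CPM in Tsc1/p62Δhep, with 2 of 8 lower and 0 higher. The sum was lowest in Tsc1Δhep library 1. The 2 called markers, Emcn (8.71 CPM) and Pecam1 (12.2 CPM), were above all Tsc1/p62Δhep libraries there (at most 2.40 and 10.3 CPM), as were Icam1 and Vcam1. Stab2 (10.6 CPM), Kdr (2.12), Clec4g (0.0433) and Tek (1.82) were below all Tsc1/p62Δhep libraries in that library. The lowest values of these markers in Tsc1/p62Δhep were 70.0, 10.1, 15.1 and 3.93 CPM. Cdh5 and Lyve1 lay within the range of Tsc1/p62Δhep. Hepatocyte markers summed to 24903 to 56832 against 66339 to 98119 CPM, with 3 of 6 higher and 0 lower. Cholangiocyte markers summed to 754 to 5240 against 83.8 to 132 CPM, with 2 of 5 lower. Most of that sum was Spp1, at 724 to 5185 against 75.7 to 119 CPM. Neutrophil markers summed to 4.23 to 10.7 against 0.918 to 1.30 CPM, with 2 of 3 lower. Stellate markers overlapped (16.5 to 105 against 69.2 to 88.8 CPM), with 2 of 6 lower. Their lowest sum was that of Tsc1Δhep library 1. In it Lrat (0.0867 CPM), Des (0.737), Pdgfrb (1.82) and Reln (0.303) were below all Tsc1/p62Δhep libraries. Col1a1 (9.06 CPM) and Acta2 (4.51) were above all of them. The part of these cells in the members' changes was not tested.

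**Figure D4:**
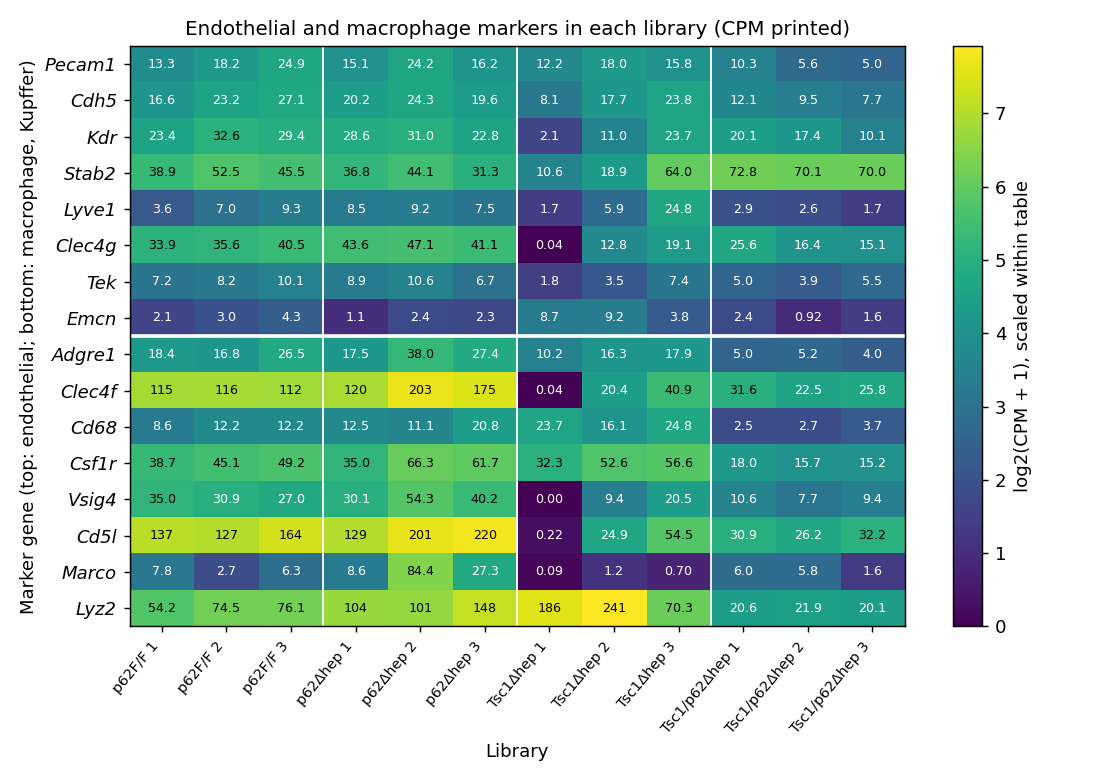
Level of 8 endothelial markers (top) and 8 macrophage and Kupffer cell markers (bottom) in each of the 12 libraries, with CPM scaled within a table printed in each cell and colour for log2(CPM + 1). Clec4g, Clec4f, Vsig4, Cd5l and Marco are at or near 0 in Tsc1Δhep library 1, and Cd68, Csf1r and Lyz2 are lower in every Tsc1/p62Δhep library than in any Tsc1Δhep library.

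Genes with the most similar profiles were taken as those with the smallest root mean square difference from a member over 12 libraries, on centred log2(CPM + 1) within each table. For Tnfaip3 they were Fam187b (0.25), Icam1 (0.28) and Tlr13 (0.31), and for Icam1 they were Ifi30 (0.25), Fam187b (0.27) and Ier5 (0.27). Nfkb2 was nearest to Tbc1d9 (0.16), Nfam1 (0.19) and Fyb (0.20), and Vcam1 to Gng11 (0.18), Gtdc2 (0.19) and Acvrl1 (0.20). Nfkbia was nearest to Mospd3 (0.17) and Srsf4 (0.18), neither of them a member. The nearest gene to Rela was Tfe3 (0.075), to Traf6 Rbbp5 (0.10), to Nfkb1 Bcl2l2 (0.10), to Birc3 Ddx52 (0.17) and to Relb 1700024P16Rik (0.20). All profiles share the same libraries, and a gene of small spread has small differences from many others.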

How the data were processed

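The authors deposited 2 tables of gene counts with 6 libraries each, and the deposited counts were taken as not normalized because all values were whole numbers and totals differed. The only build in the submitters' processing notes is the human hg19, although the gene symbols are mouse. No aligner, counter, annotation or strand setting was given in the sources used here. Of the names, 27 had been turned into dates and held 0.143% to 0.310% of counts. Such names were tested but are not printed.

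Samples were grouped and numbered by their titles. Within a table, genes were kept with filterByExpr (minimum count 10, minimum total 15), scaled by TMM and tested with edgeR 4.0.16 (quasi-likelihood test, Benjamini-Hochberg over all genes tested, threshold 0.05) in R 4.3.3. Responses were compared as the interaction in 1 model of 12 libraries. DESeq2 1.42.0, limma 3.58.1 on log2(CPM + 1), other scalings, no filter, the replicate number as a block and leaving out each library were the alternatives. The procedure was tested on simulated data. No pair of replicates agreed within sampling noise (chi-square per gene 36.2 to 325). Intervals on counts were not used, and the depth of each library sets the precision of low genes such as Relb.

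The members and lists were chosen with earlier results of these data known. Named beside the members were Sqstm1, up to 10 pathway genes with the smallest p among those called in each comparison, and for each member the 3 genes of most similar profile, of which the nearest, some or all are printed. The result of 1 gene of similar profile is not reported here. Promoter sequences are from RefSeq (GRCm38.p6).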

Additional observations from a re-analysis of the deposited data

Results flagged for a closer look

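The response to loss of p62 differed between the Tsc1-intact and the Tsc1-deleted livers, by edgeR's test of the difference itself in 12 libraries, for 4 members and for Sqstm1. The log2 difference of responses was -3.01 for Tnfaip3, -2.79 for Icam1, -1.97 for Relb, -1.72 for Nfkb2 and -1.52 for Sqstm1. Among other pathway genes it was negative for the targets Lcn2 (-6.43), Ccl2 (-6.18) and Tnfaip8 (-2.89), and for the receptors Tlr2 (-3.60), Tlr7 (-2.80) and Tnfrsf11a (-2.47). It was also negative for the inhibitor Nfkbie (-2.24) and the ubiquitin factors Tnip1 (-1.91) and Birc2 (-1.74). It was positive for Il1rap (1.96), and for the kinases Chuk (0.79) and Map3k7 (0.64), which were chosen after their values were seen. Of the 12 fits that left out 1 library, Chuk was called in 5 (adjusted p up to 0.0676), Map3k7 in 2 (up to 0.108) and Tnfrsf11a in 10 (up to 0.0547), and the other pathway genes named here and Sqstm1 in all 12. Sqstm1 is the deleted gene itself, at 12.4 to 19.8 CPM in p62Δhep and 14.4 to 19.6 CPM in Tsc1/p62Δhep. With p62 intact it was at 316 to 351 CPM in p62F/F and 789 to 1210 CPM in Tsc1Δhep. Its difference of responses thus mainly restates its levels in the groups with intact p62.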

How the results depend on the processing

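No member was called in p62Δhep against p62F/F under any alternative run, and Tnfaip3, Icam1 and Nfkbia kept their calls and directions in Tsc1/p62Δhep against Tsc1Δhep under all of them. In the first comparison the genes called higher and lower numbered 33 and 138 by DESeq2, and lower genes 4 by limma and 1 with all 12 libraries in one model. In the second, genes higher numbered 1775 by DESeq2, and 2249 higher and 2952 lower with 12 libraries; members were then 2 higher and 6 lower with each of these, adding Traf6, Birc3 and Vcam1. Upper-quartile scaling gave 940 genes higher and 2134 lower, with 6 members lower. Leaving out both Tsc1Δhep library 3 and Tsc1/p62Δhep library 1 left 2 members lower, beside 1455 genes higher and 1889 lower. Nfkb2 and Relb then did not pass (adjusted p 0.162 and 0.0631 by edgeR). Nfkb2 was not called by limma (adjusted p 0.0598). Across tables, TMM over 12 libraries gave 2 members lower without overlap in Tsc1Δhep than in p62F/F, against 23.3% of all genes. It gave 2 higher in Tsc1/p62Δhep than in p62F/F, against 24.5%.

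Leaving out 1 library gave 0 to 1 genes higher and 1 to 48 lower in the first comparison, the 48 without p62F/F library 1. In the second it gave 351 to 2686 higher and 760 to 3139 lower, lowest without Tsc1/p62Δhep library 1 and highest without Tsc1Δhep library 3, with 1 to 3 members higher and 2 to 4 lower. The difference of responses had 465 to 2401 higher, 676 to 2551 lower and 2 to 5 members lower. The sign of small differences turned with 1 library left out. In the first comparison Nfkb1 ranged from -0.00097 (without p62F/F library 1) to 0.075, Relb from -0.087 (without p62Δhep library 3; also below 0 without p62F/F library 1 or 2) to 0.47, and Birc3 from -0.064 (without p62Δhep library 2) to 0.34. In the second Nfkb1 ranged from -0.029 (without Tsc1Δhep library 1) to 0.38. In the difference of responses Nfkb1 ranged from -0.074 (without Tsc1Δhep library 1) to 0.33 and Rela from -0.091 (without Tsc1Δhep library 1; also below 0 without p62Δhep library 1 or Tsc1/p62Δhep library 2) to 0.31. The cause was not tested.

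Deviations of same-numbered libraries correlated at -0.42, -0.53 and 0.03 in the table of p62Δhep and p62F/F, and at -0.08, -0.08 and -0.13 in the other. Differently numbered libraries of p62Δhep and p62F/F reached 0.54. Such values from 3 libraries per group cannot decide whether the numbers pair the samples. With the number as a replicate block, genes lower in the first comparison numbered 1, genes higher and lower in the second 649 and 1198, and in the difference of responses 368 and 543. Nfkb2 was then not called in the second (adjusted p 0.0605) or the difference (0.0812). Sod2, Chuk, Tirap and Cflar were not called in the second, nor Sqstm1 (0.0562), Lcn2 (0.0629), Tnfrsf11a (0.0854), Chuk (0.105) and Map3k7 (0.163) in the difference. At these depths Relb rested on 18 to 50 counts in Tsc1/p62Δhep.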
